A study of Homo sapiens with 8 samples.

Results

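The transcripts on the ribosomes of brain-metastatic breast carcinoma cells were compared between cells grown with astrocytes and cells grown alone. The comparison used 4 of the 8 libraries of the study, chosen by their labels: 2 of control carcinoma cells alone and 2 of control carcinoma cells with astrocytes. The carcinoma cells were MDA231-BrM2, a brain-seeking subline of MDA-MB-231 breast cancer cells, and all 4 libraries came from cells with the control hairpin. In coculture each carcinoma cell was matched by 1 astrocyte for 24 h. The species and source of the astrocytes are not given in the sources used here. The other 4 libraries came from astrocyte cocultures of cells in which 1 of 2 hairpins targeted GJA1, the gene of the gap junction subunit Cx43, and entered the fit only to estimate the spread between replicates.

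Ribosome-associated RNA was taken by translating ribosome affinity purification, in which beads coated with an antibody against GFP pull tagged ribosomes, with the RNA they carry, out of a mixed lysate. The tag marks the ribosomes of the carcinoma cells, so the assay was meant to read carcinoma transcripts in the presence of astrocytes. More transcript in the pull-down can come from more RNA in the cell or from a larger share of it on ribosomes, and these cannot be told apart without total RNA. As in any bulk sample, a change in every cell and a change in the number of cells that carry a transcript cannot be told apart either. Of 57445 genes in the table, the 15806 whose count averaged at least 10 across all libraries were tested. Gene counts ran from 38219702 to 48997555 per library, so that 3 counts in a library, the floor used here, corresponded to 0.0624 to 0.0805 CPM, reads of a gene scaled to a fixed library total. Intervals and floors cover counting error only. The median fold difference between replicates was 1.06 for cells alone and 1.08 for the coculture among genes of at least 5 CPM. Reads that did not align uniquely ranged from 14.2% to 26.1% of each library's total, with the highest share in library 1 of the control coculture. The study's design calls the duplicates independent, and every p-value here rests on 2 libraries per group.

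Astrocytes are the main supporting glia of the brain and meet carcinoma cells early in the growth of brain metastases. Cells that sense inflammatory cytokines commonly answer through NF-kB, a family of transcription factors held in the cytoplasm by inhibitors such as NFKBIA, and through STAT3, which cytokines of the interleukin-6 family activate. Both pathways switch on chemokines and also the proteins that later turn the signal down. Type I interferon acts mainly through other STAT proteins and induces a large, well known antiviral gene set. Interferon genes were by far the strongest part of this comparison and were set aside as a list of 206 genes. The list is wider than the antiviral set and also holds antigen presentation genes such as CIITA, CD74 and HLA-DRA. Of its 193 tested members 157 rose, where 8.74% of all tested genes did, and 0 fell. The list is not described further.

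Outside that list 1224 of 15613 tested genes were higher in the coculture (7.84%) and 463 were lower (2.97%), at an adjusted p of 0.05 by edgeR's quasi-likelihood test. The rises were larger than the falls, with a median log2 change of 0.55 against -0.38. At least 2-fold differences numbered 217 higher and 27 lower. Most of the called changes were small: 53.5% of the rises and 81.2% of the falls were below 1.5-fold. Together the risen genes went from 65059 and 63866 CPM in the libraries of cells alone to 90345 and 87398 CPM in the coculture, and the fallen genes from 37855 and 38159 CPM to 29396 and 29462 CPM. The interferon list itself went from 6944 and 7022 CPM to 14973 and 15815 CPM.

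The number of calls depended on single libraries. Outside the interferon list the rises numbered 562 and 486 without library 1 or 2 of the cells alone, and 508 and 758 without library 1 or 2 of the coculture. The falls numbered 117, 245, 90 and 178 in the same order. Leaving out a library of Cx43 hairpin 1 raised the counts (1612 and 1614 rises, 805 and 812 falls), and leaving out one of hairpin 2 lowered them (848 and 853 rises, 204 and 204 falls). Genes called in the full fit and again in all 8 fits that left out 1 library are described here as called in every fit. They numbered 397 rises (2.54%) and 69 falls (0.442%) outside the interferon list, and genes named below belong to them unless the text says otherwise. Values that do not overlap between the 2 groups are a weak sign alone, since 56.3% of all tested genes had them, 30.0% with both coculture libraries above and 26.3% with both below.

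**Figure D1:**
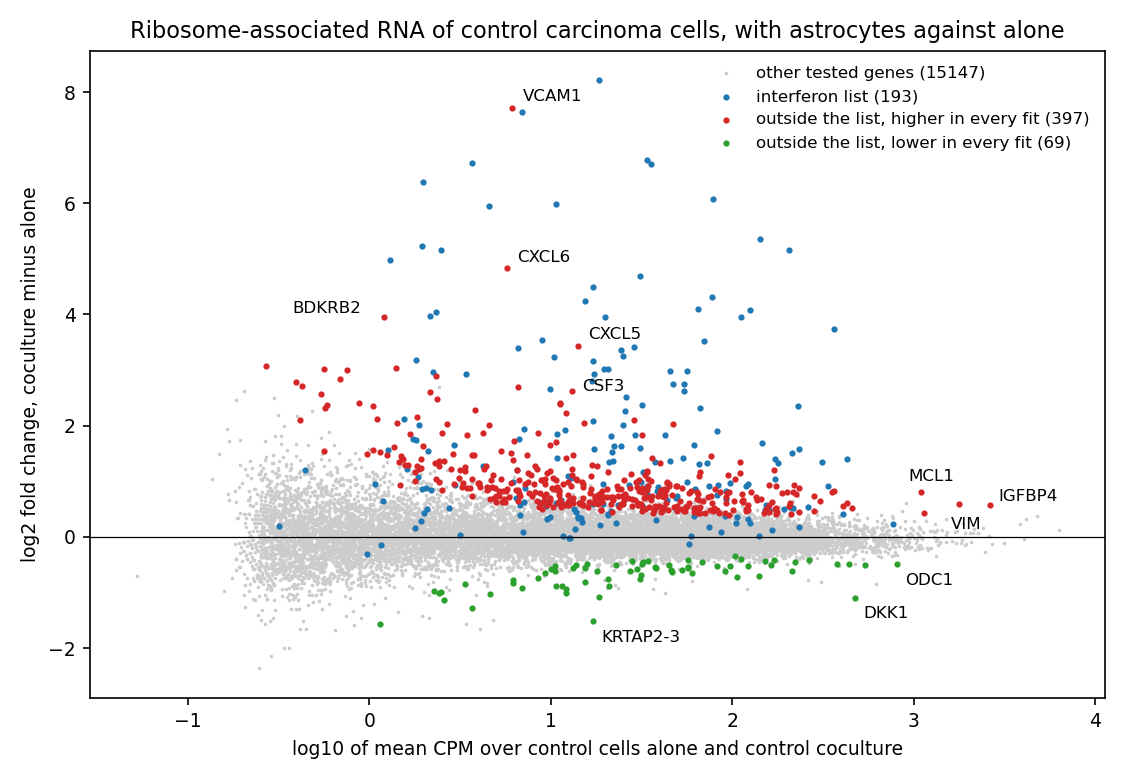
Each point is a tested gene, with the log10 of its mean CPM over both groups on the x axis and its log2 fold change, coculture minus alone, on the y axis. Blue points are the interferon list, red and green points the 397 rises and 69 falls outside it that were called in every fit. VCAM1, CXCL6 and CXCL5 stand among the interferon genes in size, and DKK1 and ODC1 are falls of abundant transcripts.

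Promoters that hold a form of the NF-kB site are shown first for 7 of the risen chemokine and interleukin genes and for BDKRB2, the receptor gene that rose most in its list, because several of them share one stretch of sequence. They were chosen for holding this form, and other strong rises, such as IL1B and IL8, had no match in the window searched. Sequences are from RefSeq (GRCh38.p14), read 5′ to 3′ on the strand of the gene, and 11542 of the tested genes had an entry. The 250 bases upstream of each start were searched on both strands for GGG followed by any 3 bases and TTCC, a form of the NF-kB site. Stretches close to this form, but not matching it, were not counted. Having no match therefore does not mean that a promoter lacks an NF-kB site. In the windows below capitals mark the match, with the neighbouring base where an overlapping match on the other strand extends it.
CXCL6, chr4:73836563-73836622, plus strand: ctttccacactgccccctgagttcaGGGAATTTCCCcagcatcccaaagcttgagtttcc
CXCL5, chr4:73998734-73998793, minus strand: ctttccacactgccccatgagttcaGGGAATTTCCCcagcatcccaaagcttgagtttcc
CXCL1, chr4:73869289-73869348, plus strand: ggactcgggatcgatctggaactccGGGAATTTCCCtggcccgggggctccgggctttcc
CXCL2, chr4:74099239-74099298, minus strand: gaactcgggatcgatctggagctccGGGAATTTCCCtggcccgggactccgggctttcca
CXCL3, chr4:74038734-74038793, minus strand: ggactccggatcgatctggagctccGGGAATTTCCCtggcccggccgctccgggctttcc
CCL20, chr2:227813738-227813797, plus strand: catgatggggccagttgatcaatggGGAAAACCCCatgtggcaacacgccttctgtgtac
IL6, chr7:22727102-22727161, plus strand: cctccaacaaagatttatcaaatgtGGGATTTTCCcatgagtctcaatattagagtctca
BDKRB2, chr14:96204749-96204808, plus strand: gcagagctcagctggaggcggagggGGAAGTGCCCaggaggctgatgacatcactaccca

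The match lay 90, 91, 79, 78 and 79 bases upstream of the start in CXCL6, CXCL5, CXCL1, CXCL2 and CXCL3, which are neighbouring, related genes on chromosome 4, so their shared sequence is not a set of independent matches. Of the 7 risen chemokine genes with a promoter entry, 6 held this NF-kB form (85.7%), and of the 6 risen interleukin and colony-stimulating factor genes with an entry 2 did. Across all tested genes with an entry 6.61% held it. The share was 8.17% of the 306 promoters of genes that rose in every fit outside the interferon list, and 9.80% of the 51 promoters of genes that fell in every fit. Over all called genes outside that list the order was the opposite, 7.16% of 950 risen and 6.10% of 344 fallen promoters, so these shares give no steady order of rises and falls. A form of the AP-1 site, TGANTCA, was in 4.11% of all promoters, 5.56% of those that rose in every fit and 7.84% of those that fell in every fit. Over all called genes outside the interferon list it was in 5.26% of risen and 4.07% of fallen promoters, and in 12.6% of the 87 promoters of genes at least 2-fold higher in every fit. A form of the interferon-stimulated response element, GAAA, any 2 bases and GAAA, was in 2.32% of all promoters, in 42.0% of the 88 promoters of interferon-list genes that rose in every fit, and in 3.59% of the promoters that rose outside the list. One of the latter was that of VCAM1, which held it 15 bases upstream of the start and is shown here because it was the largest rise outside the interferon list. The VCAM1 promoter had 0 matches to the NF-kB form searched. Stretches close to that form were not counted, and one of them, gggatttccc, lies upstream of the window shown.
VCAM1, chr1:100719702-100719741, plus strand: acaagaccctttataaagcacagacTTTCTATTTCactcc

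VCAM1 (ENSG00000162692.6), an adhesion receptor that binds integrins on leukocytes, had 5 reads in both libraries of cells alone together and 930 in the coculture libraries. Its level went from 0.0235 and 0.0832 CPM to 11.8 and 12.7 CPM, the first value lying below the floor. The ratio of reads was 222, with an exact 95% interval of 94.6 to 684. VCAM1 thus went from barely detected to clearly detected in both coculture libraries (log2 change 7.72, SE 0.251, adjusted p = 2.37e-07). ICAM1, its relative in leukocyte adhesion, went from 8.09 and 7.84 CPM to 15.4 and 15.3 CPM. Among 25 tested adhesion receptors of the immunoglobulin and selectin families 9 rose (36.0%), where 7.84% of all genes outside the interferon list did. Of these receptors 0 fell, and 6 of the rises were called in every fit. CADM4, CADM1, CADM3 and F11R, which join cells to cells, were the others of those 6.

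Chemokines, the secreted proteins that attract leukocytes, were listed with a few of their receptors, and 8 of the 15 tested genes rose (53.3%) and 1 fell. Outside the interferon list 7.84% of all genes rose and 2.97% fell. The neutrophil attractant CXCL6 (ENSG00000124875.5) went from 0.352 and 0.416 CPM to 9.82 and 12.3 CPM (log2 change 4.83, SE 0.221, adjusted p = 2.05e-06). Its neighbour CXCL5 (ENSG00000163735.6) went from 2.51 and 2.27 CPM to 24.8 and 27.0 CPM (log2 change 3.44, SE 0.111, adjusted p = 2.29e-07). These were the largest chemokine rises outside the interferon list. CCL2, which attracts monocytes, stood at 4.34 and 4.20 CPM alone and at 18 and 21.9 CPM in the coculture. IL8 (CXCL8) stood at 38.3 and 43.0 CPM alone and at 101 and 123 CPM in the coculture, and CXCL1 at 20.9 and 21.1 CPM against 40.4 and 50.1 CPM. These 5 rises were called in every fit. CXCL2, CXCL3 and CCL20 also rose, but without library 1 of the cells alone their adjusted p was 0.0518, 0.101 and 0.0637. CXCL1, CXCL2 and CXCL3, and likewise CXCL5 and CXCL6, are close copies of each other, so reads may have been lost or split between them. The 1 chemokine-list gene that fell was the receptor CXCR4, from 12.5 and 12.4 CPM to 9.54 and 10.5 CPM, and only 2 of the 8 fits kept that call.

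Interleukins, members of the interleukin-6 family and colony-stimulating factors rose in 10 of 18 tested cases and fell in 0, and 8 of the 10 rises were called in every fit. This was 55.6% of the list, where 7.84% of all genes outside the interferon list rose. The median log2 change over the 18 genes was 0.73, where that of all tested genes was -0.0026. IL1B, which starts inflammation in many tissues, went from 3.45 and 3.79 CPM to 18.4 and 19.5 CPM (log2 change 2.38, SE 0.0998, adjusted p = 1.16e-06). CSF3, the granulocyte colony-stimulating factor, went from 3.17 and 4.12 CPM to 21.1 and 24.0 CPM (log2 change 2.62, SE 0.142, adjusted p = 6.73e-06). CSF1, the macrophage growth factor, went from 20.7 and 18.7 CPM to 53.3 and 52.4 CPM. Each of the 3 was well separated from the cells alone. LIF, a ligand of the interleukin-6 family, went from 70.5 and 65.8 CPM to 145 and 135 CPM. IL6 itself rose from 2.42 and 2.99 CPM to 7.64 and 8.27 CPM, IL1A by 1.00, IL24 by 0.92 and CSF2 by 1.24 on the log2 scale. IL11, of the same family, did not pass the test, with 73.7 and 78.4 CPM alone and 82.7 and 83.5 CPM in the coculture.

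On the receiving side 6 of 21 tested interleukin receptors rose (28.6%), where 7.84% of all genes outside the interferon list did, and 0 fell. The interleukin-1 receptor IL1R1 went from 23.0 and 24.5 CPM to 48.1 and 47.8 CPM, and its partner chain IL1RAP from 10.1 and 9.78 CPM to 14.5 and 15.3 CPM. IL13RA1 rose by 0.49 on the log2 scale. IL22RA1, a receptor of interleukin-22 and of IL24, was near the floor in cells alone (0.188 and 0.187 CPM) and reached 1.11 and 0.859 CPM. The ligand IL1B, its receptor chains and IRAK2, a kinase that acts behind them, were thus all higher in the coculture. IRAK2 went from 8.94 and 8.96 CPM to 16.7 and 16.9 CPM.

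**Figure D2:**
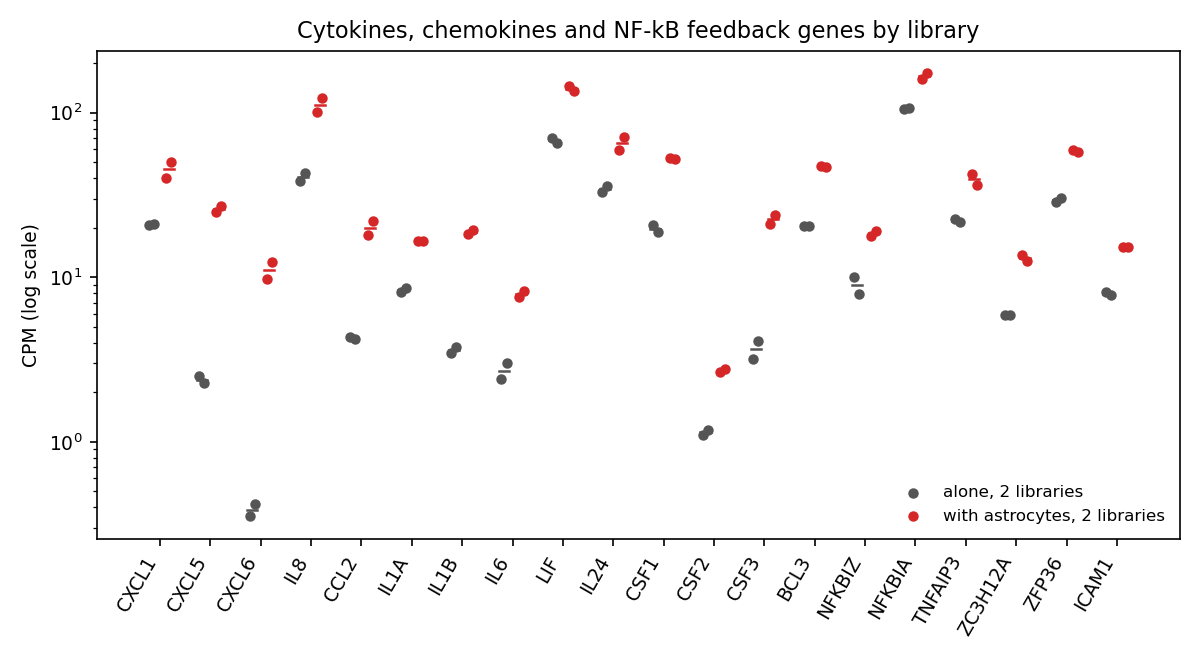
Each gene has 4 points, the CPM of its 2 libraries of control cells alone (grey) and of its 2 control cocultures (red), on a log axis, with a short line at each mean. For every gene shown both coculture points lie above both points of cells alone, from 0.352 to 12.3 CPM for CXCL6 to 105 to 175 CPM for NFKBIA.

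None of the NF-kB subunits passed the test. RELA stood at 174 and 162 CPM alone and at 179 and 160 CPM in the coculture, and NFKB1 at 56.2 and 56.5 CPM against 56.4 and 53 CPM. RELB stood at 72.2 and 65.9 CPM alone and at 84.8 and 79.9 CPM in the coculture. In the list of 19 that holds them with their inhibitors and kinases 5 genes rose and 0 fell, and the 3 rises in every fit were inhibitors or nuclear cofactors that NF-kB induces. BCL3 went from 20.6 and 20.5 CPM to 47.1 and 46.8 CPM, NFKBIZ from 10.1 and 7.92 CPM to 17.7 and 19.2 CPM, and NFKBIA from 105 and 106 CPM to 159 and 175 CPM. The 5 rises were 26.3% of the list of 19, where 7.84% of all genes outside the interferon list rose. Among 22 tested brakes and adaptors of TNF signalling 8 rose (36.4%) and 0 fell, though only 2 rises were called in every fit. One of these was TNFAIP3, the ubiquitin-editing inhibitor also known as A20 (log2 change 0.83), and the other, N4BP1, is also on the interferon list.

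STAT3 targets and cytokine feedback genes rose in 11 of 20 tested cases (55.0%), where 7.84% of all genes outside the interferon list rose. Of this list 0 fell, and 8 of the rises were called in every fit. STAT3 itself and the listed feedback inhibitors, CISH and the SOCS genes, were not among those 8. The survival kinase PIM1 went from 39.8 and 42.3 CPM to 92.3 and 91.6 CPM (log2 change 1.16, SE 0.0631, adjusted p = 6.73e-06). BCL6, a transcriptional repressor, went from 20.1 and 18.4 CPM to 35.9 and 35.0 CPM. The acute-phase transcription factors CEBPB and CEBPD rose by 0.72 and 0.74, and JUNB, MYC and HIF1A by 0.72, 0.47 and 0.52 on the log2 scale. The acute-phase protein gene SAA2 rose by 1.27. SAA2 is nearly identical to SAA1, so its reads are uncertain.

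Genes whose products destroy inflammatory transcripts were higher as well. Of 24 tested regulators of mRNA decay 6 rose and 0 fell. The ribonuclease ZC3H12A (regnase-1), which cuts cytokine mRNAs, went from 5.93 and 5.93 CPM to 13.7 and 12.6 CPM. ZFP36 (tristetraprolin), which binds AU-rich elements, went from 28.5 and 30.5 CPM to 59.1 and 57.5 CPM, and its relative ZFP36L1 from 339 and 319 CPM to 494 and 472 CPM. BTG2, which promotes deadenylation, rose by 1.18 on the log2 scale. All 4 were called in every fit.

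Brakes of MAP kinase signalling, which growth factor signals induce to limit themselves, rose in 11 of 28 tested cases (39.3%) and fell in 3. The shares over all genes outside the interferon list were 7.84% and 2.97%. DUSP1, a phosphatase of p38 and JNK, went from 110 and 109 CPM to 205 and 213 CPM. SPRY4, SPRY1, DUSP6 and DUSP16 rose by 0.82, 0.51, 0.55 and 0.67 on the log2 scale, and ERRFI1, an inhibitor of the EGF receptor, went from 953 and 981 CPM to 1303 and 1308 CPM. In the other direction RGS4, which shortens signals of G protein-coupled receptors, fell from 26.2 and 25.6 CPM to 15.5 and 15.3 CPM and was the 1 fall of the list in every fit. Among the ligands and receptors of the EGFR family 2 of 12 rose (16.7%), 1 of them in every fit. That list summed to a mean of 441 CPM alone and 455 CPM in the coculture. The ligand EREG went from 10.6 and 10.3 CPM to 23.9 and 26.9 CPM, while HBEGF (102 and 99.0 CPM against 103 and 104 CPM) and EGFR (207 and 187 CPM against 196 and 172 CPM) did not pass the test.

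Immediate-early transcription factors rose in 11 of 32 tested cases and fell in 0, with 6 rises in every fit: KLF9, JUNB, MYC, IER3, CSRNP1 and NR4A2. The 11 rises were 34.4% of the list, where 7.84% of all genes outside the interferon list rose. KLF9 is also a target of the glucocorticoid receptor, and that list rose in 9 of 16 tested cases, 8 of them in every fit, with a median log2 change of 0.50. KLF9 went from 104 and 101 CPM to 239 and 232 CPM (log2 change 1.2, SE 0.0666, adjusted p = 7.41e-06). TSC22D3 (GILZ), a mediator of the anti-inflammatory action of steroids, went from 67.0 and 71.9 CPM to 117 and 126 CPM, and the kinase SGK1 from 60.3 and 64.6 CPM to 86.9 and 88.7 CPM. ZBTB16 went from 0.446 and 0.250 CPM to 1.93 and 1.58 CPM. The other members called in every fit were ANGPTL4, DUSP1, DDIT4 and ERRFI1, which other signals also induce. FKBP5, a widely used reporter of this receptor, did not pass the test, with 406 and 412 CPM alone and 458 and 428 CPM in the coculture.

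Of 19 tested clock genes 7 rose (36.8%) and 0 fell, 3 in every fit. For all genes outside the interferon list the shares were 7.84% risen and 2.97% fallen. NR1D1 (REV-ERB alpha), a repressor of the clock and of inflammatory genes, went from 11.4 and 10.3 CPM to 48.0 and 44.7 CPM (log2 change 2.10, SE 0.0826, adjusted p = 8.09e-07). It overlaps THRA on the opposite strand, and reads of the pair cannot be told apart without strand. The clock output factor TEF and the receptor RORA rose by 0.71 and 0.65 on the log2 scale. PER2, a core component, did not pass the test, with 7.60 and 7.76 CPM alone and 8.59 and 7.22 CPM in the coculture. BHLHE40, a repressor tied to both the clock and hypoxia, led the list of helix-loop-helix factors, going from 14.1 and 14.0 CPM to 51 and 48.9 CPM (log2 change 1.83, SE 0.0697, adjusted p = 6.89e-07). Of 20 such factors 8 rose and 1 fell. ID1 went from 21.3 and 20.1 CPM to 34.9 and 42.5 CPM, while its relative ID3, which also blocks DNA binding of helix-loop-helix factors, went from 25.9 and 27.4 CPM to 12.8 and 15.2 CPM. The fall of ID3 was called in 5 of the 8 fits, and its adjusted p was 0.0819 without library 1 of the coculture.

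Genes of the prostaglandin and eicosanoid pathway rose in 7 of 18 tested cases (38.9%, against 7.84% of all genes outside the interferon list) and fell in 0. PTGS2 (COX-2), which makes the common precursor of prostaglandins, went from 5.68 and 5.28 CPM to 10.3 and 11 CPM. PTGES, which turns that precursor into prostaglandin E2, went from 5.86 and 5.99 CPM to 25.2 and 24.1 CPM (log2 change 2.06, SE 0.0787, adjusted p = 6.94e-07). The phospholipase PLA2G4A, which releases arachidonic acid, rose by 0.88 and LTA4H, of the leukotriene branch, by 0.47 on the log2 scale. Successive steps from membrane lipid to prostaglandin E2 were therefore each higher in the coculture libraries.

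Retinoid and aryl hydrocarbon response genes rose in 7 of 19 tested cases (36.8%) and fell in 1. By comparison 7.84% of all genes outside the interferon list rose and 2.97% fell. The retinoic acid receptor RARB went from 1.83 and 1.81 CPM to 6.43 and 6.84 CPM, and DHRS3, an enzyme that reduces retinal, from 4.06 and 3.24 CPM to 14.8 and 11.8 CPM. TGM2, a protein-crosslinking enzyme that retinoids and inflammation both induce, went from 66.9 and 57.5 CPM to 167 and 151 CPM. RARG and the cytochrome CYP1B1 rose by 0.77 and 0.92 on the log2 scale.

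**Figure D3:**
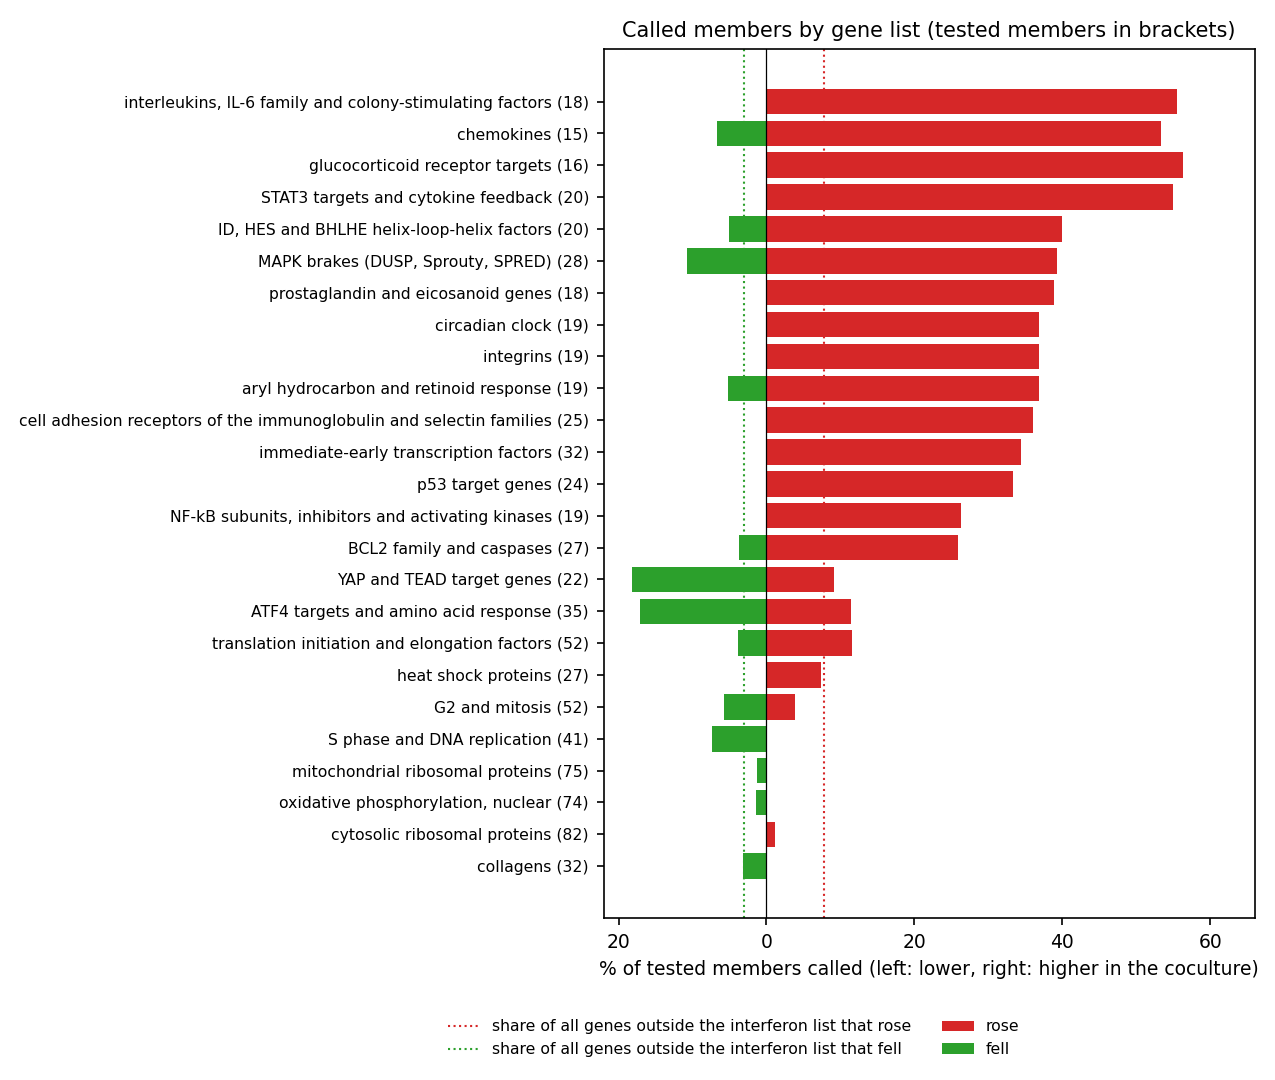
Bars give the percent of tested members of a gene list that rose (red, to the right) or fell (green, to the left) in the coculture, with the number tested in brackets, for 25 of the 76 lists. Dotted lines mark the shares over all genes outside the interferon list, 7.84% and 2.97%. The cytokine, STAT3 and glucocorticoid lists reach over 50%, while the ribosomal protein and oxidative phosphorylation lists have 1 call each. Some genes are counted in several lists, so the bars are not independent, and the lists were chosen with earlier results of these data known.

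Receptors for peptides and lipid mediators moved in both directions, 6 of 16 tested genes up (37.5%) and 3 down. The shares over all genes outside the interferon list were 7.84% up and 2.97% down. The bradykinin receptor BDKRB2 (ENSG00000168398.5) went from 0.164 and 0.125 CPM to 2.57 and 1.93 CPM. Its ratio of reads, 172 against 13, was 15.8 with a 95% interval of 8.98 to 30.2 (log2 change 3.95, SE 0.287, adjusted p = 4.51e-05). Thrombomodulin (THBD), a brake on clotting, went from 69.5 and 67.7 CPM to 154 and 150 CPM. The endothelin receptors EDNRA and EDNRB rose by 0.62 and 0.74 on the log2 scale. The oxytocin receptor OXTR fell from 25.9 and 24.4 CPM to 12.7 and 11.2 CPM, and the lysophosphatidic acid receptor LPAR1 from 253 and 257 CPM to 189 and 184 CPM.

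Integrins, the receptors for matrix, rose in 7 of 19 tested cases and fell in 0, and 4 of the rises were called in every fit. The fibronectin receptor chain ITGA5 went from 177 and 157 CPM to 295 and 273 CPM, and the collagen receptor chain ITGA2 from 47.2 and 38.2 CPM to 73.8 and 73.5 CPM. ITGB8 and ITGA11 rose by 1.03 and 0.80 on the log2 scale. Over all genes outside the interferon list 7.84% rose and 2.97% fell. Of 32 tested collagens 0 rose and 1 fell, and of 53 other matrix glycoproteins and proteoglycans 4 rose (7.55%) and 0 fell. These counts changed most when a library of the cells alone was left out, and those libraries summed to 2080 and 1367 CPM for the collagens and to 3869 and 2733 CPM for the other list, against 1629 and 1519 CPM and 3093 and 2971 CPM in the coculture. Without library 2 of the cells alone 9 genes fell in each list, and without library 1 of the cells alone 3 collagens rose and 0 fell. In the plasminogen system, which degrades fibrin and matrix, 6 of 17 genes rose and 1 fell. The activators PLAT and PLAU rose, from 181 and 150 CPM to 296 and 311 CPM and from 129 and 125 CPM to 180 and 178 CPM.

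Growth factors outside the cytokine and EGFR lists rose in 10 of 28 tested cases (35.7%) and fell in 2. Outside the interferon list 7.84% of all genes rose and 2.97% fell. ANGPTL4, STC1, VEGFA, FGF2 and PDGFA rose by 1.17, 0.89, 0.43, 0.67 and 0.54 on the log2 scale. The falls were both fibroblast growth factors, FGF1, from 38.3 and 39.8 CPM to 21.6 and 24.7 CPM, and FGF5, from 191 and 199 CPM to 144 and 148 CPM. The metalloprotease PAPPA, which frees insulin-like growth factors by cutting IGFBP4, went from 7.32 and 6.78 CPM to 20.6 and 18.6 CPM. IGFBP4 itself, the second largest gain in CPM among called genes outside the interferon list, went from 2174 and 2104 CPM to 3198 and 3132 CPM. The axon guidance gene NTN1 went from 5.14 and 4.37 CPM to 16.5 and 13.5 CPM, and the Notch ligands DLL1 and JAG1 rose by 2.40 and 0.69 on the log2 scale.

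Survival and cell death genes rose on both sides. MCL1, which protects mitochondria from BAX and BAK1, went from 802 and 799 CPM to 1421 and 1388 CPM (log2 change 0.81, SE 0.0616, adjusted p = 5.98e-05). Its antagonists BBC3 (PUMA), BMF and BCL2L11 (BIM) rose by 1.02, 1.28 and 0.45, and the pore former BAK1 by 0.40 on the log2 scale. BCL2L1, another protector, did not pass the test, with 1072 and 1034 CPM alone and 1050 and 997 CPM in the coculture. In the list of BCL2 genes and caspases 7 of 27 rose (25.9%) and 1 fell, and 8 of 24 tested p53 targets rose (33.3%) and 0 fell. Of all genes outside the interferon list 7.84% rose and 2.97% fell. CDKN1A (p21), which halts the cell cycle, went from 148 and 143 CPM to 256 and 253 CPM.

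Few genes of proliferation or of ribosomes were called. For comparison with the counts that follow, 7.84% of all genes outside the interferon list rose and 2.97% fell. Of 41 S phase genes 0 rose and 3 fell, and of 52 genes of G2 and mitosis 2 rose and 3 fell, none of them in every fit. Without either library of hairpin 1 these falls numbered 6 and 8, without library 2 of the cells alone 1 and 5, and without any other library 0. The S phase genes summed to 2728 and 2751 CPM alone and to 2502 and 2531 CPM in the coculture. Those of G2 and mitosis summed to 5280 and 5272 CPM against 4679 and 4801 CPM, so both sums were lower in both coculture libraries. MKI67 stood at 154 and 105 CPM alone and at 114 and 101 CPM in the coculture, and TOP2A at 157 and 132 CPM against 132 and 130 CPM. Of 82 cytosolic ribosomal proteins 1 was called and of 75 mitochondrial ones 1, with median log2 changes of -0.12 and -0.20. The cytosolic ones summed to 62105 and 70613 CPM alone and to 54924 and 69867 CPM in the coculture. The mitochondrial ones summed to 7108 and 7761 CPM against 6015 and 6979 CPM. The falls among the mitochondrial ones numbered 7 without either library of hairpin 1 and 0 without any other library. Nuclear genes of oxidative phosphorylation had a median of -0.18, with 1 call in 74, and summed to 9782 and 11286 CPM against 8066 and 10701 CPM. In these lists library 1 of each group had the lower sum, so the medians rest on replicates that differed. Unfolded protein response genes rose in 3 of 26 cases and heat shock proteins in 2 of 27, in both lists none in every fit. Of 52 translation initiation and elongation factors 6 rose and 2 fell, and 1 to 6 rose when 1 library was left out. EIF4B, a helper of ribosome scanning, was the 1 called in every fit, from 200 and 197 CPM to 279 and 262 CPM. The elongation factors EEF1A1, from 3991 and 4345 CPM to 5378 and 5488 CPM, and EEF2, from 765 and 665 CPM to 1178 and 1007 CPM, were called in 2 and 6 of the 8 fits. Their adjusted p was 0.163 without library 1 and 0.113 without library 2 of the cells alone. EEF1A1 also has many pseudogene copies, which makes its counts uncertain.

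Genes lower in the coculture formed fewer groups. The largest fall by this rule was that of KRTAP2-3 (ENSG00000212724.2), a hair keratin-associated gene, from 24.2 and 26.1 CPM to 8.66 and 8.96 CPM (log2 change -1.51, SE 0.0932, adjusted p = 1.55e-05). DKK1 (ENSG00000107984.5), a secreted inhibitor of Wnt signalling, lost the most CPM of all called genes. It stood at 606 and 685 CPM alone and at 279 and 326 CPM in the coculture (log2 change -1.09, SE 0.147, adjusted p = 0.00194). The list of Wnt genes had 4 rises (12.9%) and 3 falls in 31. Shares over all genes outside the interferon list were 7.84% for rises and 2.97% for falls. Among the Wnt genes only DKK1 fell in every fit. SPNS2, the exporter of sphingosine 1-phosphate, went from 5.42 and 5.07 CPM to 2.26 and 2.04 CPM. ST6GALNAC5, a sialyltransferase linked to passage of breast cancer cells through the blood-brain barrier, went from 5.98 and 6.43 CPM to 2.93 and 3.17 CPM.

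Targets of YAP and TEAD, which report cell tension and contact, had 4 falls and 2 rises in 22 tested genes. Among all genes outside the interferon list 2.97% fell and 7.84% rose. AJUBA went from 262 and 254 CPM to 170 and 166 CPM, ANKRD1 from 500 and 523 CPM to 365 and 368 CPM, and FJX1 from 310 and 299 CPM to 229 and 226 CPM. The reporters CTGF, at 348 and 322 CPM alone and 379 and 404 CPM in the coculture, and CYR61, at 634 and 632 CPM against 686 and 744 CPM, did not pass the test. ATF4 targets, which serve amino acid supply, had 6 falls and 4 rises in 35, with a median log2 change of -0.15. None of those 6 falls was called in every fit. ATF4 itself did not pass the test, with 629 and 690 CPM alone and 527 and 589 CPM in the coculture.

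Among antagonists and ligands of the TGF-beta family, NOG fell from 64.9 and 62.1 CPM to 39.0 and 45.2 CPM and INHBB from 7.76 and 7.97 CPM to 4.65 and 4.48 CPM, while BMP2 and the repressor SKIL rose by 0.94 and 0.85 on the log2 scale. In all, 8 of these 32 genes rose and 2 fell. ODC1, which makes putrescine, fell from 895 and 1001 CPM to 691 and 662 CPM, and its partner in polyamine synthesis AMD1 from 447 and 448 CPM to 350 and 347 CPM. The call of AMD1 ended without library 1 of the coculture (adjusted p = 0.0588). The actin-binding coronin CORO1C and the catenin-like CTNNAL1 had log2 changes of -0.51 and -0.48. AHNAK, a giant scaffold protein, had 499 and 292 CPM alone and 243 and 207 CPM in the coculture, and without library 1 of the cells alone its adjusted p was 0.150. Smaller transcripts that fell in every fit were KIF17, FAM46B, MUSK, APLN, RIMS2, MFAP5, FAIM3 and SH2D5, with log2 changes of -1.14 to -0.81. Long intergenic noncoding RNAs named LINC had 9 falls and 5 rises (5.21%) in 96, so rises were below their share over all genes and falls above it. The 4 calls that stood in every fit were falls: LINC00472, LINC00467, LINC00261 and LINC00641.

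**Figure D4:**
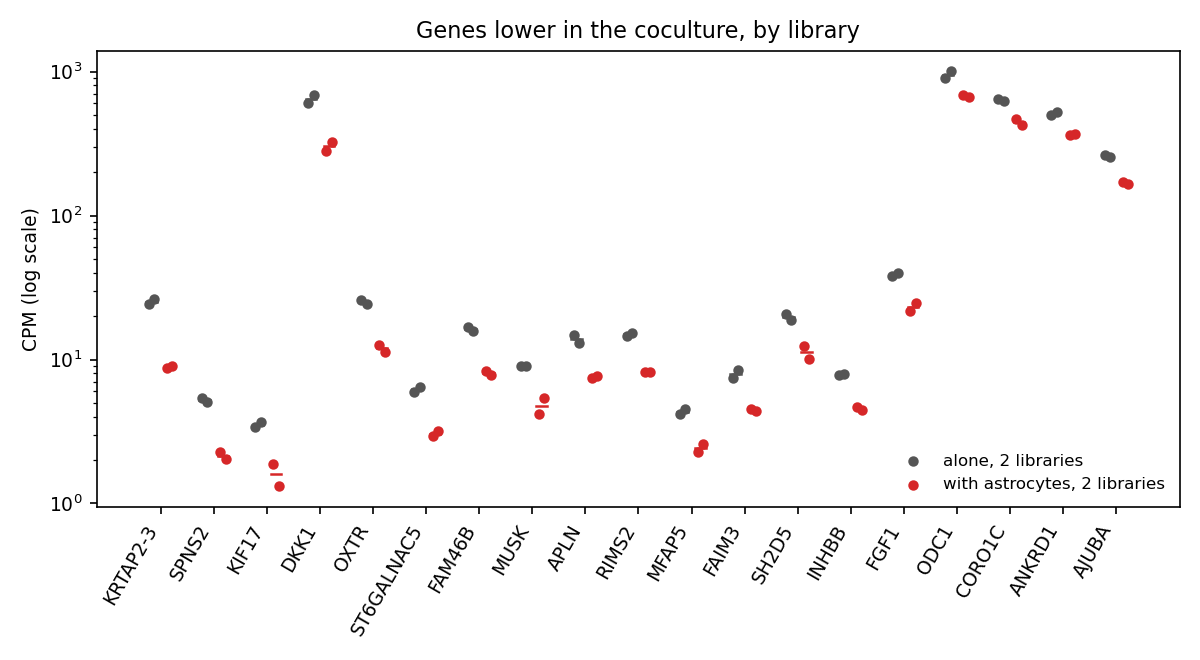
Each gene has 4 points, the CPM of its 2 libraries of control cells alone (grey) and of its 2 control cocultures (red), on a log axis, with a short line at each mean. The 15 largest falls come first, from KRTAP2-3 to FGF1, followed by ODC1, CORO1C, ANKRD1 and AJUBA, and in each both coculture points lie below both points of cells alone.

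Some large rises outside the interferon list belong to genes that interferon can also induce in other cells, since no list holds every such gene. FBXO6 (0.563 and 0.645 CPM against 3.65 and 3.76 CPM), THEMIS2 (3.38 and 3.70 CPM against 19 and 18.7 CPM) and TRANK1 (2.13 and 1.41 CPM against 12 and 10.8 CPM) were of this kind. Their levels in the Cx43 hairpin cocultures, which share the control coculture as reference in the study, were 0.676 to 1.39 CPM for FBXO6, 4.51 to 5.50 CPM for THEMIS2 and 1.97 to 2.87 CPM for TRANK1 over 4 libraries. NR1D1 had 15 to 15.6 CPM there, and these 4 lay nearer in CPM to cells alone than to the control coculture. VCAM1, with 1.33 to 1.89 CPM, lay well above cells alone and well below the control coculture. Other genes lay nearer to the control coculture: CXCL5 had 16.9 to 21.0 CPM in the hairpin libraries, PAPPA 19.2 to 23.3 CPM, NTN1 14.3 to 16.5 CPM and the adhesion protein gene LRRN3 3.62 to 4.42 CPM, against 0.751 and 0.686 CPM in cells alone and 4.32 and 3.70 CPM in the control coculture. The falls KRTAP2-3, at 6.46 to 8.77 CPM, FGF1, at 20.9 to 21.2 CPM, and OXTR, at 10.7 to 13.6 CPM, were also at the level of the control coculture or close to it. These levels are a description, and the differences between hairpin and control cocultures were not tested here.

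Markers of the cells that could enter the pull-down from the astrocyte culture were read in the same libraries. Of 31 listed astrocyte markers, 20 passed the count filter, and 8 of those rose and 0 fell. Their summed level was 316 and 306 CPM alone and 388 and 385 CPM in the coculture, and 2 of the 31, GJB6 and NTSR2, had no read in any of the 4 libraries. GFAP, the defining intermediate filament of astrocytes, had 375 and 410 reads in the libraries without astrocytes and 536 and 477 with them, or 8.79 and 8.52 CPM against 13.8 and 12.8 CPM. The water channel AQP4 had 2 and 4 reads alone and 3 and 6 in the coculture, S100B 1 and 1 against 2 and 0, and the glutamate transporter SLC1A2 8 and 7 against 7 and 9. ALDH1L1 stood at 1.43 and 1.16 CPM alone and 1.23 and 1.02 CPM in the coculture, while SLC1A3 went from 2.67 and 3.04 CPM to 5.01 and 5.61 CPM and SOX2 from 8.30 and 8.15 CPM to 17.5 and 18.3 CPM. AQP4, S100B and SLC1A2 were thus at or near the floor with and without astrocytes. GFAP, SLC1A3 and SOX2 were detected in cells alone and higher in both coculture libraries. Of the 8 that rose, ATP1B2 was near the floor in cells alone, with 5 reads there and 27 in the coculture, and the others were already detected. GJA1, which astrocytes also express, went from 51.1 and 46.3 CPM to 65.9 and 64.7 CPM, and its call ended without library 2 of the cells alone (adjusted p = 0.0621).

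Of 16 microglia and macrophage markers 4 were tested and 3 rose, and the list summed to 87.6 and 86.8 CPM alone and 147 and 149 CPM in the coculture. Nearly all of that was LAPTM5, at 84.6 and 83.0 CPM against 141 and 144 CPM. AIF1 had 0 reads in all 4 libraries, PTPRC 3 and 7 reads alone and 7 and 6 in the coculture, and 7 of the 16 had no read: AIF1, C1QA, C1QB, C1QC, P2RY12, TREM2 and TYROBP. The oligodendrocyte list rose in 3 of 6 tested cases, from a sum of 264 and 246 CPM to 360 and 325 CPM, and the neuron list in 1 of 8, from 27.7 and 26.5 CPM to 33.4 and 33.8 CPM. CNP, 1 of the 6 tested oligodendrocyte genes, is also on the interferon list. The endothelial list rose in 1 of 8, not in every fit, from 332 and 320 CPM to 361 and 362 CPM. For the neuron and endothelial lists the share that rose, 12.5%, was near the 8.74% of all tested genes, of which 2.93% fell. No change of those lists as a whole is read from such counts. Fibroblast and meningeal markers rose in 3 of 12 and fell in 1, with sums of 1154 and 728 CPM alone and 912 and 848 CPM in the coculture. The neuronal marker RBFOX3 had at most 1 read in each library. The part of RNA from other cells in the genes that rose was not tested. As in MDA-MB-231, the carcinoma cells had little ESR1, with 0.234 to 0.514 CPM, and much VIM, the mesenchymal filament gene, which went from 1505 and 1318 CPM to 2175 and 2095 CPM.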

How the data were processed

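The deposited table holds whole-number read counts per gene for 8 libraries, 57445 genes and 5 counter entries, which were left out. The submitters' processing notes list hg19 as the build and the tools TopHat2, HTSeq and DESeq2, with no versions. Which annotation was used, and how reads were counted by mode and strand, is not given in the sources used here. The table is described by its depositors as normalized, but the authors' values behave as raw counts and were used as such.

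Counts were scaled by TMM factors and tested by edgeR 4.0.16 (quasi-likelihood) in R 4.3.3, with all 8 libraries in 4 groups, a mean count of at least 10 and Benjamini-Hochberg adjustment at 0.05 over 15806 genes. The common biological coefficient of variation was 7.66%. CPM use TMM-scaled totals. The method was tested on simulated data. DESeq2 1.42.0 and other alternatives are in the closing section. Replicates were not treated as pairs, since the labels give only numbers.

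Members and gene lists were chosen with earlier results of these data known, and 76 lists were counted. Named genes were GJA1, the 15 largest rises and 15 largest falls outside the interferon list among genes called in every fit (group mean of at least 50 counts, no overlap, no clone, antisense or similar symbol), up to 6 members of a described list by smallest p, the 10 largest gains and losses in CPM, uncalled members the list's role needs, and markers of other cells. Some members of lists, and 1 further motif window, were named after their values were seen, and not all selected genes are printed. Motifs were searched in RefSeq promoter sequences matched by symbol. Some results are not reported here.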

Additional observations from a re-analysis of the deposited data

How the results depend on the processing

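Of the genes followed, no called one changed direction under any alternative run. Among uncalled genes, the log2 change of RELA was -0.0018 with no filter, -0.00065 with the 4 compared libraries alone and -0.072 to 0.074 when 1 library was left out, that of MKI67 -0.52 to 0.018 and that of PER2 -0.089 to 0.14 when 1 library was left out. Outside the interferon list the rises numbered 1101 with DESeq2, 1190 with DESeq2's size factors in edgeR, 1183 at a mean of at least 50 counts, 1508 with no filter, 1040 with the 4 compared libraries alone and 1189 with the TNF, NF-kB, chemokine and interleukin lists also left out. The falls numbered 514, 524, 553, 1132, 392 and 461. With no filter 2805 genes were called in all, 1132 of them lower. Leaving out 1 library at a time gave 738 to 2589 calls in all, 613 to 1777 higher and 90 to 812 lower, and outside the interferon list 486 to 1614 higher and 90 to 812 lower. With a replicate block 1160 genes were called in all and 195 were lower, and outside the list 818 were higher, 817 of them also higher without the block. Deviations of same-numbered libraries correlated at 0.19 between cells alone and the control coculture and at -0.37 to 0.13 between other groups, so the numbers were not taken as pairs. Of 448 genes followed, 117 lost their call under the block, 42 of 447 with DESeq2 and 55 with the 4 compared libraries alone. Leaving out cells-alone library 1 or 2 lost 186 or 205 of these calls, control coculture library 1 or 2 lost 192 or 148, a hairpin 2 library 107 or 106, and a hairpin 1 library 1. With only 2 libraries per group, changes below 1.5-fold rest on a spread estimated from few samples.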

Other observations

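Solute carriers, which move nutrients and ions across membranes, include 1 tested gene that is also on the interferon list. They rose in 32 of 205 tested cases (15.6%) and fell in 3, against 7.84% and 2.97% of all genes outside the interferon list. Of the rises 13 were called in every fit. The phosphate transporters SLC20A1, from 344 and 337 CPM to 522 and 512 CPM, and SLC34A2, from 0.117 and 0.125 CPM to 1.16 and 0.859 CPM, were among them, as was the sugar transporter SLC2A12, from 1.24 and 1.77 CPM to 5.58 and 5.21 CPM. The glucose transporter SLC2A3 went from 33.6 and 32.4 CPM to 49.96 and 46 CPM, and 7 of 32 genes of hypoxia and glycolysis rose, 4 of them in every fit. In cholesterol metabolism 7 of 28 genes rose and 2 fell. INSIG1, which holds back cholesterol synthesis, went from 138 and 141 CPM to 239 and 239 CPM, and the exporter ABCA1 from 4.74 and 3.14 CPM to 12.3 and 9.53 CPM.

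Of 42 tested neurotransmitter receptors 5 rose and 3 fell, of 78 potassium, calcium and chloride channels 8 rose and 1 fell, and of 26 cadherins and protocadherins 3 rose and 2 fell. The rises were 11.9%, 10.3% and 11.5% of these lists, near the 7.84% of all genes outside the interferon list, of which 2.97% fell. No change of these lists as a whole is read from such counts. The genes named next were chosen after their values were seen and come from several lists. The ganglioside-making sialyltransferase ST8SIA1 went from 1.74 and 1.91 CPM to 8.38 and 6.33 CPM, the protocadherin PCDH17 from 1.10 and 1.06 CPM to 4.09 and 3.81 CPM and the calcium channel subunit gene CACNG7 from 10.1 and 9.55 CPM to 24.9 and 23.3 CPM. The giant cadherin FAT3 fell from 136 and 130 CPM to 83.4 and 78.2 CPM and the hyaluronan synthase HAS2 from 55.0 and 55.4 CPM to 38.2 and 34.9 CPM. The muscle ubiquitin ligase gene FBXO32 went from 23.2 and 22.6 CPM to 59.9 and 54.9 CPM. All of the genes named in these paragraphs were called in every fit.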
